A study of Homo sapiens with 21 samples.

Results

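The 9 transcription factors described here are held to set and keep epithelial identity: the grainyhead-like factors *GRHL1*, *GRHL2* and *GRHL3*, the OVO-like repressors *OVOL1* and *OVOL2*, the epithelium-specific ETS factors *ELF3* and *EHF*, and the Krüppel-like factors *KLF4* and *KLF5*. They were taken by gene symbol, and all 9 were found among the 23201 gene symbols listed and among the 13343 genes with a mean normalized read count of at least 10 that were tested. Transcripts were measured by RNA-seq in HMLE, an established human mammary epithelial line immortalized with telomerase and viral T antigen. One group was left untreated (d0), and the others were treated with TGFβ, a cytokine that induces epithelial to mesenchymal transition (EMT), for 1, 4, 7, 10, 15 or 20 days (d1 to d20), with 3 libraries per timepoint and 21 in all. All groups share the line and the seeding density, no TGFβ dose is given in the sources used here, and untreated cells were sampled at d0 only, so treatment and time in culture cannot be told apart.

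Epithelial cells are held together by adherens junctions, tight junctions and desmosomes, and the genes for these structures are switched on by a small set of transcription factors. Grainyhead-like factors bind and activate junction genes such as *CDH1* and *CLDN4*, OVO-like factors repress mesenchymal regulators such as *ZEB1*, and the ETS and Krüppel-like factors act in barrier formation, differentiation and proliferation of stratified and glandular epithelia. During EMT, repressors of the SNAI and ZEB families bind short E-box sequences in epithelial genes, and GRHL2 and OVOL proteins oppose ZEB1 in turn.

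Promoter sequence was read for 6 of the 9 factors from RefSeq (GRCh38.p14, which is not the hg19 build named in the submitters' processing notes), as the 250 bases before each annotated transcript start, 9 windows in all. No window was matched for *GRHL2*, *OVOL1* or *OVOL2*. The E-box of SNAI and ZEB factors (CACCTG, searched on both strands) was present in 2 of the 9 windows, those of *ELF3* and of the first start of *GRHL3*, compared with 17.5% of the 35116 promoter windows of the same length. Of the following windows, those of *ELF3* and *GRHL3* are shown because their transcripts had the largest decreases at d10 among the 9 factors. At d1 and d20 the largest were those of *ELF3* and *GRHL1* (log2 fold changes of *GRHL1* -2.03 and -3.19, of *GRHL3* -1.99 and -2.66). The windows of *GRHL1* and of the second *GRHL3* start hold no E-box and are not shown, so the display depends on this choice. The *KLF4* window is shown because its transcript alone was higher than d0 on each treated day. A link between the E-box and the decreases was not tested. Capitals mark the E-box. The windows lie at chr1:202010337-202010586 on the plus strand for *ELF3*, chr1:24319107-24319356 on the plus strand for *GRHL3* and chr9:107489770-107490019 on the minus strand for *KLF4*, each directly upstream of the transcript.
ELF3: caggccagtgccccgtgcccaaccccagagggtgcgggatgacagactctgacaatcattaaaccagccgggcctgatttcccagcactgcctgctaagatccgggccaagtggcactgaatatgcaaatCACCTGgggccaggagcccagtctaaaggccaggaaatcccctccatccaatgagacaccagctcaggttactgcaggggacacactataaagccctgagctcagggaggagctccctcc
GRHL3: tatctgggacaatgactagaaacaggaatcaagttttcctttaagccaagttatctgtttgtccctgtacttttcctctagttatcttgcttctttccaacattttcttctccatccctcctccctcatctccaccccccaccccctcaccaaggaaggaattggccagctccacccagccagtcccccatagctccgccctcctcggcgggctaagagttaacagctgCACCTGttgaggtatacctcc
KLF4: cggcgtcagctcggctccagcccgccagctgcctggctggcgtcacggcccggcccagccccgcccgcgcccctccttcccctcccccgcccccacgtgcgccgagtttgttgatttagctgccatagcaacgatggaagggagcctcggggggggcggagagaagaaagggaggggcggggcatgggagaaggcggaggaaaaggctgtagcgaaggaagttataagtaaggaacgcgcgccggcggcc
The E-box started at position -120 of *ELF3* and position -21 of *GRHL3*, counted from the transcript start, and these letters were not found in the *KLF4* window. They were also absent from the windows of *GRHL1*, *EHF*, *KLF5* and the second start of *GRHL3*, although *GRHL1* was lower than d0 on each treated day. The grainyhead motif (AACNNGTT, both strands) was found in 0 of the 9 windows and in 3% of all windows. The KLF motif (CACCC, both strands) was found in 6 of the 9 and 54.7% of all, and the ETS motif (GGAA, both strands) in 7 of the 9 and 92.7% of all. A match describes the sequence and is not evidence of binding.

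The reads recovered from the normalized values totalled 18847917 to 22667754 per library. Outside d7, libraries that share a timepoint were 0.214 to 0.243 apart (root mean square of their log2 differences over the genes tested), and no pair agreed within sampling noise. At d7, the first and second libraries differed by 0.223 and the third, in column order, differed from them by 0.472 and 0.457. This library lay 0.427 from the mean of d4, 0.431 from that of d20 and 0.451 from the other d7 libraries, so values at d7 are given with and without it where it changed a call. *SMAD7*, *SKIL*, *CDH2* and *FN1*, which mark the response to TGFβ, were all higher than d0 on each of the 6 days (limma, adjusted p under 0.05). The basal keratins *KRT5*, *KRT14* and *KRT17* had summed values of 181105 to 677069, and the luminal markers *KRT8*, *KRT18*, *KRT19* and *MUC1* of 11188 to 16602. Of the markers of other cell types, *PTPRC* and *CD3E* (immune), *CDH5* (endothelial) and *TYR* (melanocyte) had at most 1 read in any library. *CD79A* (immune) had up to 7 reads, *VWF* (endothelial) up to 13, and *ADIPOQ* and *PLIN1* (adipocyte) up to 13 and 26. *CD68*, *PECAM1*, *MLANA* and *PMEL* passed the filter. The summed value of the 4 immune markers, nearly all from *CD68*, was 375 to 379 at d0 and from 345 at d10 to 822 at d4 in treated libraries. That of the 3 endothelial markers was 47.2 to 54.3 at d0 and 10.4 to 27.4 in treated libraries, and that of the 3 melanocyte markers 55.2 to 66.3 at d0 and from 22.5 at d10 to 90.4 at d15. That of the 2 adipocyte markers was 9.9 to 14.2 at d0, 30.8 to 40.4 at d15 and 6.5 to 17.6 at the other timepoints. Their part in the results below was not tested.

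Most of the 9 factors fell under TGFβ, but not at the same time. *GRHL1*, *GRHL2*, *GRHL3* and *ELF3* were below d0 at all 6 treated timepoints, compared with 8.26% of all genes tested, and in these 4 genes every treated library lay below every untreated one, as in 9.98% of all genes. *KLF4* was higher on each day (14.3% of all genes), and every treated library lay above every untreated one (14.6%). *EHF* was the one factor that was higher on one day and lower on others, as were 28.7% of all genes. *OVOL1*, *OVOL2* and *KLF5* were lower on some days and did not differ from d0 on others.

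**Figure D1:**
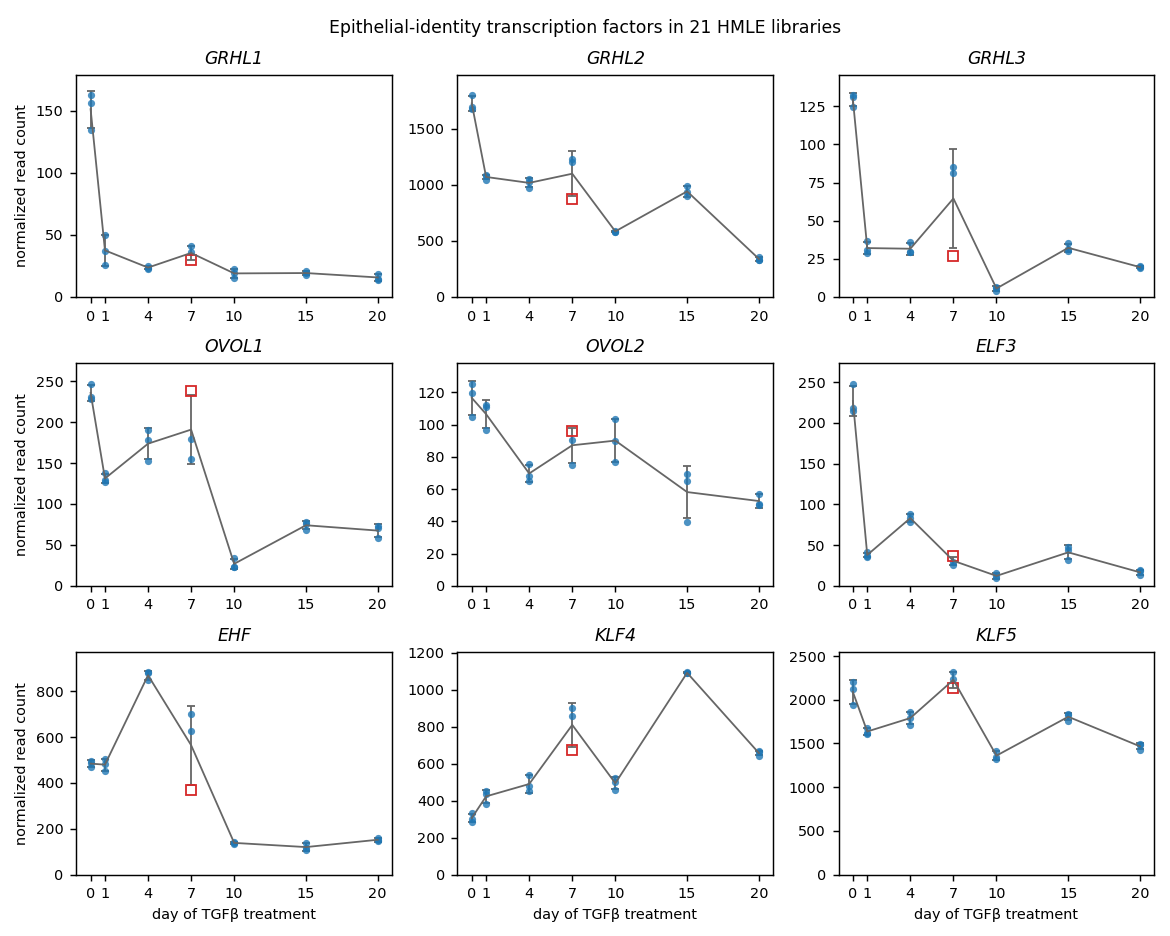
Normalized read count (vertical axes, linear from 0) against day of TGFβ treatment for each of the 9 factors. Dots are libraries, the red square is the third d7 library, and lines and bars give the mean and SD of 3 libraries; 8 of the 9 factors end below their untreated value and *KLF4* ends above it.

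By day, 6 of the 9 factors were lower at d1 (28.5% of all genes tested) and 1 was higher (31.3%). At d4, 7 were lower (35.3%) and 2 higher (36.9%). At d7, 5 were lower (32.6%) and 1 was higher (34.6%). At d10, 7 were lower (30.7%) and 1 was higher (37%), and at d15 8 were lower (37.3%) and 1 was higher (39.2%). At d20, 8 were lower (30.2%) and 1 was higher (32.5%). With a change of at least 2-fold also required, 3 factors were lower at d1 (3.87% of all genes) and 0 higher (6.47%), d4 had 3 lower (5.03%) and 0 higher (9.68%), and d7 had 3 lower (2.93%) and 1 higher (8.79%). By the same rule 6 were lower at d10 (7.34%) and 0 higher (6.94%), 6 lower at d15 (8.66%) and 1 higher (11.7%), and 7 lower at d20 (4.72%) and 1 higher (7.51%). Over the 9 factors, the median log2 difference from d0 was -0.69, -0.73, -0.42, -1.80, -1.66 and -1.80 for the 6 treated timepoints in order, whereas that of all genes tested did not exceed 0.031 in size. In bulk RNA, fewer cells that express a gene and less RNA per cell cannot be told apart.

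**Figure D2:**
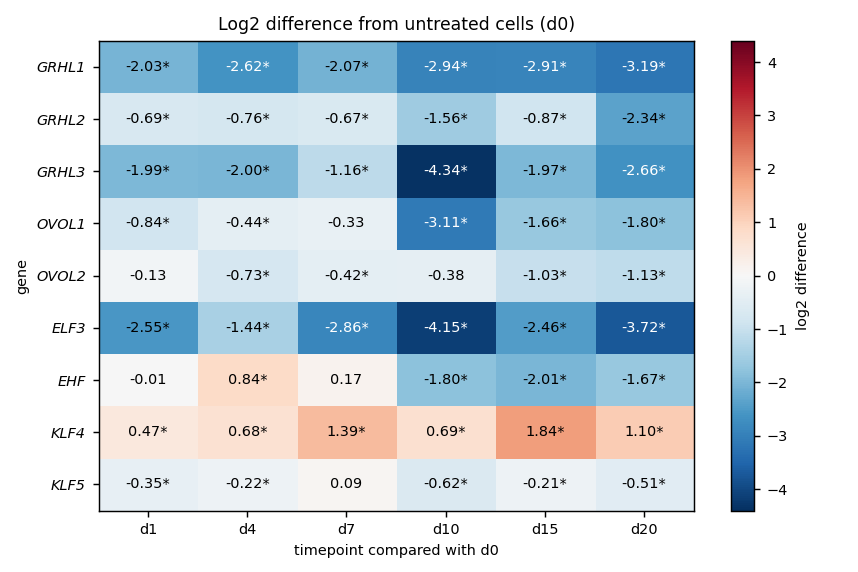
Log2 difference from untreated cells for each factor (rows) on each day of treatment (columns), from limma on log2(value + 1). An asterisk marks an adjusted p under 0.05; the lowest value is -4.34 for *GRHL3* at d10 and the highest is 1.84 for *KLF4* at d15.

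*GRHL2*, the grainyhead-like factor most often tied to the epithelial state of the breast, had 1694, 1681 and 1805 normalized counts in the untreated libraries. It fell to 1085, 1080 and 1048 at d1, a log2 fold change of -0.69 (SE 0.085, adjusted p = 4.77e-07, limma). The lowest libraries were those of d20, with 329, 359 and 332, which lay below all 18 others. At d20 the log2 fold change was -2.34 (SE 0.085, adjusted p = 5.68e-16), a 5.07-fold decrease. In order of level, the means at d7, d1, d4 and d15 were 1100 ± 199 (SD, n = 3), 1071 ± 19.96, 1018 ± 39.6 and 942 ± 46.5, and no neighbours in this order differed at an adjusted p under 0.05, although d15 was lower than d7 (log2 difference -0.21, adjusted p = 0.0427). The difference between d7 and d4 was 0.09 with the third d7 library (adjusted p = 0.368) and 0.25 without it (adjusted p = 6.11e-05). The mean at d10, 585 ± 6.77 (SD, n = 3), lay below these and above that of d20. *GRHL2* was thus 1.86-fold lower at d10 than at d7 (log2 difference -0.89, adjusted p = 7.53e-09), higher again at d15 (0.69, adjusted p = 2.08e-07) and 2.77-fold lower at d20 than at d15 (-1.47, adjusted p = 2.17e-12).

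*GRHL1*, a paralog that regulates desmosome genes and epidermal differentiation, was also lower from d1 on. The untreated libraries had 163, 156 and 135 normalized counts, those of d1 50.2, 25.6 and 36.7, and those of d20 14.8, 13.7 and 18.6. The d1 libraries were the most variable of the treated groups in relation to their mean, yet none of them came near the untreated range. The log2 fold change was -2.03 at d1 (SE 0.21, adjusted p = 3.34e-08) and -3.19 at d20 (SE 0.21, adjusted p = 1.6e-11), a 9.15-fold decrease. From d10 on the level was nearly flat, with means of 19.0 ± 3.35 (SD, n = 3), then 19.3 ± 1.60 and, by d20, 15.7 ± 2.58, and no increase at d15 was called for *GRHL1* (log2 difference 0.03 from d10, SE 0.21, adjusted p = 0.894). The difference between d7 and d4 (0.55, adjusted p = 0.0315) was lost when the first or the third d4 library, or the first or the second d7 library, was left out (adjusted p = 0.07 to 0.122). This difference was also lost by DESeq2 (adjusted p = 0.0737). In limma it was lost with quantile normalization, without the filter and in a fit of the 2 groups alone (adjusted p = 0.0587, 0.0615 and 0.0649). That between d4 and d1 (-0.59, adjusted p = 0.0167) was lost without the first d1 library (-0.36, adjusted p = 0.141).

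*GRHL3*, which drives barrier formation and wound closure in the epidermis, had the widest range of the 9 factors, 4.34 on the log2 scale between the highest and lowest timepoint. The untreated libraries had 131, 125 and 133 normalized counts, and those of d1 36.6, 30.8 and 28.8. At d10 the values were 5.97, 6.80 and 3.91, which correspond to 6, 7 and 4 reads. These were the lowest of all libraries, 20.2-fold below d0 on the log2(value + 1) scale (log2 fold change -4.34, SE 0.29, adjusted p = 2.07e-11). At d15 the libraries were back at 31.6, 29.9 and 35.2, 2.36 higher than d10 on the log2 scale (adjusted p = 1.77e-07), and this level did not differ from those of d1 and d4. At d20 they were 19.1, 20 and 19.6. The decrease from d15 to d20 (-0.69, adjusted p = 0.0367) was lost when any 1 library of d15 or d20 was left out (adjusted p = 0.052 to 0.0975). It was also lost by edgeR (adjusted p = 0.0599) and DESeq2 (adjusted p = 0.0503), and in limma with quantile normalization or without the filter (adjusted p = 0.0984 and 0.0612). At d7 the libraries were split, with 81.3, 85.5 and 27.0. The log2 fold change from d0 was -1.16 with the third library and -0.63 without it (adjusted p = 0.00138 and 0.0112), and the increase over d4 was 0.85 with and 1.38 without it (adjusted p = 0.0187 and 1.25e-06). Without the first or the second d7 library that increase was 0.60 or 0.56 (adjusted p = 0.115 and 0.131), and without the first or the third d4 library it was 0.80 (adjusted p = 0.056 and 0.0557). Fitted with the d4 and d7 groups alone it was not called (adjusted p = 0.156).

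On a scale corrected for length, as the mean normalized count per kilobase of the longest coding transcript in GENCODE, *GRHL2* stood at 330 in untreated cells, *GRHL3* at 45.1 and *GRHL1* at 42.4, and at d20 at 64.9, 6.82 and 4.41. *GRHL1* and *GRHL3* lay within their spread of each other at d0 on this scale, and at d10 *GRHL3* was the lower, with 1.94 against 5.32. The transcript forms expressed in these cells were not measured.

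*ELF3*, an ETS factor of differentiating epithelium that is also induced by inflammatory signals, had 248, 215 and 218 normalized counts in untreated cells and 36.6, 41.0 and 35.7 at d1. This first-day decrease, -2.55 on the log2 scale (SE 0.20, adjusted p = 3.55e-10), was the largest of the 9 factors at d1. The value then moved at each step. It was 83.1, 77.9 and 88.1 at d4, more than the d1 libraries (log2 difference 1.12, adjusted p = 4.73e-05), and 29.6, 26.1 and 36.3 at d7 (-1.42 from d4, adjusted p = 5.42e-06). At d10 it was lowest, with 8.96, 15.6 and 11.7, a log2 fold change of -4.15 from d0 (SE 0.20, adjusted p = 7.29e-14). A second increase followed at d15, to 31.6, 47.9 and 43.5 (1.69 from d10, adjusted p = 8.8e-08), and at d20 the libraries had 19.1, 12.6 and 17.6, a level that did not differ from that at d10. All 18 treated libraries lay below 90, where the lowest untreated one had 215.

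*EHF*, the closest relative of *ELF3* among these factors and a regulator of epithelial differentiation, did not move at d1, with 482, 505 and 452 normalized counts against 488, 495 and 469 in untreated cells (log2 difference -0.01, SE 0.15, adjusted p = 0.938). At d4 it was higher, with 848, 882 and 878, above every other library of the series (log2 fold change 0.84, SE 0.15, adjusted p = 2.4e-05). At d10, d15 and d20 it was lower, with means of 138 ± 4.77 (SD, n = 3), 120 ± 16.2 and 152 ± 7.65 and log2 fold changes of -1.80, -2.01 and -1.67 (adjusted p = 4.85e-10, 4.18e-11 and 1.96e-09). The d7 libraries had 699, 625 and 370. With all of them *EHF* did not differ from d0 (0.17, adjusted p = 0.308), and without the third it was higher (0.45, adjusted p = 1.55e-05). The small increase from d15 to d20 (0.35, adjusted p = 0.0367) was lost when the first or the third d15 library or the first or second d20 library was left out (adjusted p = 0.066 to 0.154), and by edgeR (adjusted p = 0.126) and DESeq2 (adjusted p = 0.0749).

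*OVOL1*, a zinc finger repressor that moves epidermal cells out of proliferation, had 231, 229 and 247 normalized counts in untreated cells. It was lower at d1, with 127, 129 and 138 (log2 fold change -0.84, SE 0.15, adjusted p = 6.36e-05). At d7 it had 179, 155 and 238 and was not called against d0 (-0.33, adjusted p = 0.0627), although only the third library lay within the untreated range. Without the third library *OVOL1* was lower (-0.50, adjusted p = 0.00282). It was also lower at d7 by edgeR (-0.32, adjusted p = 0.0267). In limma it was lower with a pseudocount of 10, after rescaling to a common total and with quantile normalization (adjusted p = 0.0446, 0.00476 and 0.0233). At d10 *OVOL1* fell to 22.9, 34.0 and 23.5, 6.91-fold below d7 (log2 difference -2.79, SE 0.15, adjusted p = 3.14e-12) and 8.66-fold below d0 (-3.11, adjusted p = 9.83e-14). It increased to 68.4, 76.0 and 77.7 at d15 (1.45 from d10, adjusted p = 1.5e-08) and held at 73.1, 70.5 and 58.8 at d20 (-0.14 from d15, adjusted p = 0.424). The increase from d1 to d4 (0.40, adjusted p = 0.0259) was lost without either the first or the second library of d1 or of d4 (adjusted p = 0.061 to 0.103). The difference from d0 at d4 (-0.44, adjusted p = 0.0123) was lost without the third d4 library (-0.35, adjusted p = 0.0676).

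*OVOL2*, which represses *ZEB1* and keeps mammary epithelial cells from EMT, was not called at d1 and was lower from d4 on at all timepoints but d10. The untreated libraries had 125, 120 and 105 normalized counts, those of d1 111, 96.4 and 112, and those of d20 57.2, 50.5 and 49.9. The untreated and d1 ranges overlapped, and the log2 difference at d1 was -0.13 (SE 0.17, adjusted p = 0.522). At d4 *OVOL2* was lower (-0.73, SE 0.17, adjusted p = 0.00052), and the decreases at d15 (-1.03, adjusted p = 1e-05) and d20 (-1.13, adjusted p = 4.78e-06) were the largest. No 2 timepoints that follow each other in the order of its levels differed. *OVOL2* was the one factor that was not lower at d10 than at d7, with 90.1 ± 13.4 (SD, n = 3) against 87.2 ± 10.9 (log2 difference 0.04, SE 0.17, adjusted p = 0.822). The difference from d0 at d10 was -0.38 (adjusted p = 0.0523 by limma, 0.0196 by edgeR and 0.0415 by DESeq2). At d7 it was -0.42 (adjusted p = 0.0318), and it was lost without the first or second d0 library or the first d7 library (adjusted p = 0.0765 to 0.139). Exons of *OVOL2* share 59 bases with those of *SNX5* on the same strand in GENCODE, and *SNX5* itself was 3022 ± 44.2 (SD, n = 3) at d0 and 3037 ± 123 at d20 (adjusted p = 0.893). In GENCODE, *ELF3* shares 664 exon bases with AL691482.3 on the same strand, and other transcripts lie on the opposite strand over exons of *ELF3*, *GRHL2* and *OVOL1*. Whether reads were counted by strand is not given in the sources used here.

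*KLF4*, a Krüppel-like factor of barrier formation and cell cycle exit, moved the other way. It had 331, 286 and 300 normalized counts in untreated cells, 451, 383 and 435 at d1, and 1094, 1088 and 1091 at d15, the highest level of the series. The log2 fold change was 0.47 at d1 (SE 0.09, adjusted p = 0.000146) and 1.39 at d7 (adjusted p = 1.56e-11), and it was highest at d15, with 1.84 (adjusted p = 6.65e-14). At d20 the mean was still 215% of the untreated mean (adjusted p = 6.9e-10). The rise was not steady. *KLF4* was lower at d10, with 521, 459 and 502, than at d7, with 898, 856 and 674 (log2 difference -0.70, adjusted p = 5.72e-07), higher again at d15 (1.14, adjusted p = 1.77e-10) and lower at d20, with 660, 667 and 643 (-0.73 from d15, adjusted p = 2.72e-07). The levels at d4 and d10 did not differ from each other. The difference between d4 and d1 (0.21, adjusted p = 0.0458) was lost under most changes to the fit, with adjusted p = 0.0799 by edgeR and 0.0524 by DESeq2, and it ranged from 0.14 to 0.23 where the omission of 1 library ended it.

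*KLF5*, which promotes proliferation of basal epithelial cells, kept most of its level. The untreated libraries had 2119, 1943 and 2205 normalized counts and those of d20 1428, 1479 and 1494, so that the groups did not overlap but the d20 mean was still 70.2% of the untreated mean. Its log2 fold changes, in order of time, were -0.35, -0.22, 0.09, -0.62, -0.21 and -0.51 (SE 0.047, adjusted p = 4.37e-09 for d20). Only at d7 did it not differ from d0 (adjusted p = 0.08), and without the third d7 library or the third d0 library it was higher there (0.13 in both fits, adjusted p = 0.0127 and 0.0234). *KLF5* had its minimum at d10, with 1325, 1341 and 1418, which did not differ from d20. The difference between d4 and d1 (0.13, adjusted p = 0.0191) was lost without the first or second d1 library or the first d4 library (adjusted p = 0.0523 to 0.0965). Per kilobase of the longest coding transcript, *KLF5* stood at 586 and *KLF4* at 109 in untreated cells, and at 411 and 234 at d20.

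The steps between consecutive timepoints showed a shared decrease at d10. From d7 to d10, 8 of the 9 factors were lower (35.2% of all genes tested) and 0 higher (36.2%), *OVOL2* being the other one, and with quantile normalization *GRHL1* was not called (adjusted p = 0.0587). Of these, 4 (*GRHL3*, *OVOL1*, *ELF3* and *EHF*) were at least 2-fold lower, compared with 9.09% of all genes. From d10 to d15, 6 factors were higher (39.3%) and 1, *OVOL2*, was lower (40.5%), and 4 (*GRHL3*, *OVOL1*, *ELF3* and *KLF4*) were at least 2-fold higher, compared with 12% of all genes. From d15 to d20, 5 were lower (36.3%) and 1 was higher (37.7%). Of these calls, *GRHL3* and *EHF* were lost by edgeR (adjusted p = 0.0599 and 0.126) and by DESeq2 (adjusted p = 0.0503 and 0.0749). The earlier steps were mixed, with 5 factors higher (32.9%) and 2 lower (32%) from d1 to d4, and 4 higher (25.5%) and 2 lower (25.5%) from d4 to d7. Among these, *KLF4* from d1 to d4 was lost by edgeR and DESeq2 (adjusted p = 0.0799 and 0.0524). *OVOL1* at that step was lost with quantile normalization (limma, adjusted p = 0.094), and *GRHL1* from d4 to d7 by DESeq2 (adjusted p = 0.0737). Of the 9 factors, *GRHL3*, *OVOL1*, *ELF3* and *KLF5* had their lowest mean at d10 and *GRHL1*, *GRHL2* and *OVOL2* at d20, although for *GRHL1*, *OVOL2*, *ELF3* and *KLF5* the lowest mean did not differ from the next one. The summed value of the 3 basal keratins moved in the same direction over d7, d10, d15 and d20, with 316596 to 677069, 181105 to 185104, 471403 to 488186 and 248343 to 252194. That of the 4 luminal markers was 11187.8 to 12954.0, 12348.6 to 12702.6, 15998.2 to 16318.5 and 12903.0 to 13366.1, so its ranges overlapped between d7 and d10. The part of either sum in these steps was not tested.

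**Figure D3:**
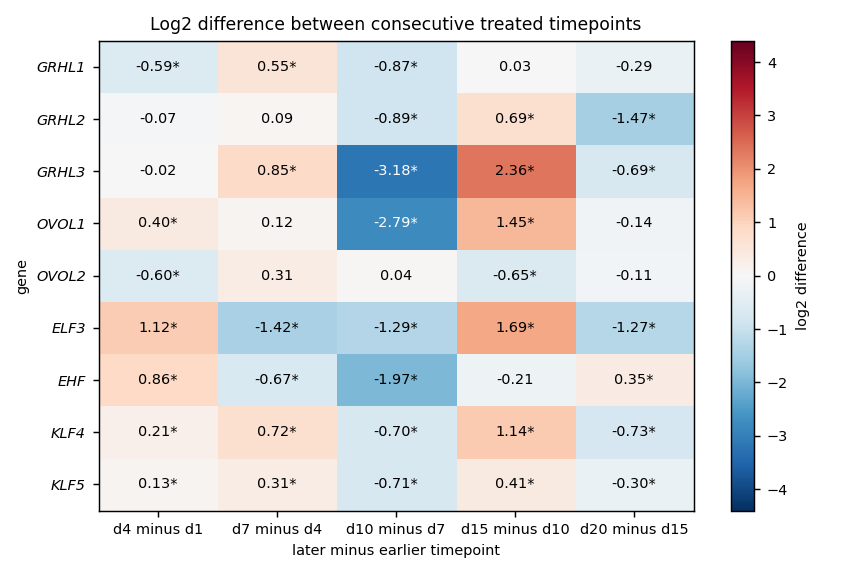
Log2 difference between consecutive treated timepoints (columns, later minus earlier) for each factor (rows), from limma on log2(value + 1). An asterisk marks an adjusted p under 0.05; in the column from d7 to d10, 8 factors are lower, from -0.70 for *KLF4* to -3.18 for *GRHL3*.

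To place the factors beside the genes they act with, lists of related genes were followed over the same days. A list of 13 genes known as targets of grainyhead-like factors holds junction, splicing and protease genes and some others, such as *ERBB3*. Of these 13, 9 were lower and 1 higher at d1 (28.5% and 31.3% of all genes tested), 7 lower and 3 higher at d4 (35.3% and 36.9%), and 7 lower and 2 higher at d7 (32.6% and 34.6%). At d10 12 were lower and 0 higher (30.7% and 37%), at d15 9 lower and 2 higher (37.3% and 39.2%), and at d20 13 lower and 0 higher (30.2% and 32.5%). The median log2 difference of this list was -0.37 at d1, -1.27 at d10, -0.50 at d15 and -1.33 at d20. *TJP3*, a tight junction scaffold, had 42.3 ± 1.07 (SD, n = 3) normalized counts at d0 and 3.39 ± 1.41 at d20 (log2 fold change -3.35, adjusted p = 3.89e-06). It had 3 reads or fewer in 7 libraries. On treated days its means were 0.327 at d10 to 8.74 at d15, under the filter of 10. *TJP3* thus passed the filter only through its d0 value, and its place among the lower genes is no independent support. *ERBB3*, a receptor tyrosine kinase, fell from 1056 ± 14.1 (SD, n = 3) to 156 ± 7.61, the adhesion protein *EPCAM* from 2106 ± 52.4 to 402 ± 14.7, and the membrane protease *ST14* from 4602 ± 74.8 to 1235 ± 60.2. Their log2 fold changes at d20 were -2.76, -2.39 and -1.90 (adjusted p = 8.55e-15, 3.69e-16 and 9.47e-19). *CDH1*, the adherens junction cadherin, was -1.33 at d20.

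Of 17 genes of epidermal differentiation, the programme in which *GRHL3*, *OVOL1* and *KLF4* act in skin, 10 passed the filter. At d20, 5 of the 10 were lower (30.2% of all genes tested) and 2 higher (32.5%), with a median of -1.53. *SPRR1A* and *SPRR1B*, which encode small proteins of the cornified envelope, fell from 242 ± 2.27 (SD, n = 3) to 4.07 ± 1.88 and from 509 ± 55.3 to 50.3 ± 6.03 (log2 fold changes -5.66 and -3.31, adjusted p = 7.59e-12 and 7.78e-09). The cross-linking enzyme *TGM1* fell from 241 ± 16.4 (SD, n = 3) to 40.7 ± 9.25 (-2.56, adjusted p = 5.9e-09). *IVL*, which encodes the envelope protein involucrin, rose from 109 ± 17.7 (SD, n = 3) to 650 ± 22.0 (2.58, adjusted p = 8.14e-14). Its highest mean was 1332 at d1, and among treated days its lowest was 238.5 at d15. *FLG* was the other gene called higher at d20 (0.84, adjusted p = 0.000176).

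Among 8 other factors of epithelial lineages, 7 passed the filter, and at d20 6 were lower (30.2% of all genes tested) and 1 higher (32.5%) with a median of -0.41. At d4 and at d15, 5 were higher (36.9% and 39.2%) and 2 lower (35.3% and 37.3%). *ZNF750*, an epidermal differentiation factor, fell from 193 ± 23.2 (SD, n = 3) to 14.8 ± 0.0777 (-3.62, adjusted p = 6.19e-05), and *TFAP2C* from 320 ± 3.55 to 39.6 ± 3.76 (-2.99, adjusted p = 7.13e-13). *GATA3*, a luminal lineage factor, fell from 279 ± 43.2 (SD, n = 3) to 188 ± 27.7 (-0.57, adjusted p = 0.000257). *PRDM1*, a zinc finger repressor, rose from 63.8 ± 13.3 (SD, n = 3) to 366 ± 8.67 (2.52, adjusted p = 1.8e-13).

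Of 14 relatives of the 9 factors by DNA-binding domain, 11 were tested. At d20 3 were higher and 4 lower with a median of -0.10, shares near those of all genes (32.5% and 30.2%). On other days more were higher. At d4 8 were higher (36.9%) and 2 lower (35.3%), with a median of 0.72, and at d7 7 (34.6%) and 3 (32.6%). At d15 8 were higher (39.2%) and 3 lower (37.3%), with a median of 0.86. At d1 4 were higher (31.3%) and 3 lower (28.5%), and at d10 6 (37%) and 4 (30.7%). *TFCP2L1*, of the CP2 branch of the grainyhead family, fell from 6527 ± 168 (SD, n = 3) to 1122 ± 9.998 (-2.54, adjusted p = 5.58e-15). *KLF6*, *KLF10* and *KLF7* rose, with log2 fold changes of 1.32, 1.21 and 0.92 (adjusted p = 9.75e-14, 9.66e-11 and 8.63e-09), *KLF10* being known as an early TGFβ response gene. *ELF5*, the ETS factor of alveolar luminal cells, had at most 1 read in any library.

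Of 6 repressors that oppose the epithelial factors, 5 passed the filter and all 5 were higher than d0 on each day, as were 14.3% of all genes tested, with a median log2 difference of 2.05 at d20. *ZEB1* rose from 5.71 ± 0.67 (SD, n = 3) to 433 ± 9.45 and *SNAI2* from 1248 ± 84.0 to 5171 ± 169, and the log2 fold changes of *ZEB1*, *ZEB2*, *SNAI2*, *TWIST2* and *TWIST1* at d20 were 6.02, 3.15, 2.05, 1.96 and 1.15. *SNAI1* had at most 4 reads in any library.

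**Figure D4:**
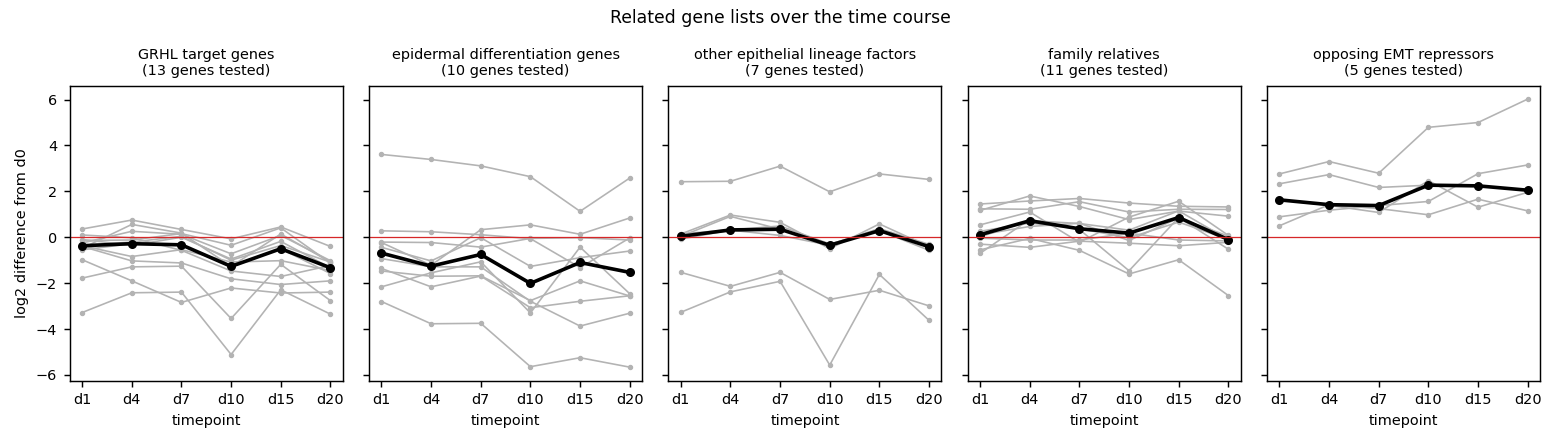
Log2 difference from untreated cells (vertical axis) on each treated day for the tested genes of 5 lists. Grey lines are genes, black lines the median of the list and the red line marks 0; the median of the 13 target genes is -1.27 at d10, -0.50 at d15 and -1.33 at d20, whereas that of the 5 opposing repressors stays above 1.

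Genes whose course was most like that of each factor were found by Pearson's r over the 21 libraries on log2(value + 1), among 5219 genes with a range of at least 1, and these values describe likeness only, since libraries of a timepoint resemble each other. *GRHL2* ran closest to *TMEM30B*, which encodes a subunit of a lipid flippase (r = 0.974), and *MAP7*, a microtubule-associated protein of epithelia (0.966). *GRHL1* ran closest to the basal keratin *KRT15* (0.956), which was 19180 ± 219 (SD, n = 3) at d0 and 640 ± 2.89 at d20, and to *LZTS1* (0.946). *GRHL3* was most like *LYPD3* (0.969) and *MAP2K6* (0.954), a kinase that activates p38, which had 85.6 ± 6.71 (SD, n = 3) in untreated cells, 5.57 ± 0.614 at d10 and 17.7 ± 4.47 at d20. The nearest genes were *C1QTNF6* (0.939) and *HCAR2* (0.921) for *OVOL1*, and *CREG1* (0.962) and *ARHGEF16* (0.961) for *ELF3*. For *EHF* they were *PTGES* (0.955), a prostaglandin E synthase, and the protease inhibitor *A2ML1* (0.950). *KLF5* was most like the amino acid transporter *SLC7A8* (0.952) and *SLC22A23* (0.941). *OVOL2* had the least close neighbours, *KLK6* (0.852) and *CKMT1A* (0.833). Reads of *HCAR2* and *CKMT1A* can be shared with near-identical copies. *KLF4* ran with *FILIP1L* (0.977), which had 249 ± 30.6 (SD, n = 3) in untreated cells and 878 ± 8.45 at d20, and *APLP1* (0.968). Between the factors, r was highest for *GRHL3* and *OVOL1* (0.87) and lowest for *OVOL2* and *KLF4* (-0.66).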

How the data were processed

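RNA-seq of HMLE cells was deposited as one table of normalized signal, in which the authors scaled every library by a size factor. The submitters' processing notes name STAR 2.7, Salmon 1.4 and build hg19, with no role or order. The annotation, the counting step and the strand setting are not given in the sources used here. Whole reads were recovered as multiples of the value of 1 read (0.848 to 1.06), within 0.1 reads for 100% of the values in every library. The 3 columns of a timepoint share one name, so libraries were assigned to timepoints but not to replicate numbers. The study describes them as biological triplicates.

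After a filter that kept genes whose mean was 10 or more, log2(value + 1) was fitted in limma 3.58.1 (R 4.3.3) as one mean per timepoint, with moderated variances that follow a trend in expression, and fold changes are on that scale, which understates changes of low genes. Benjamini-Hochberg adjustment ran over all genes tested in a contrast, at a threshold of 0.05. As alternatives, the recovered reads were tested with DESeq2 1.42.0 and with the quasi-likelihood test of edgeR 4.0.16. The models were also run on simulated data in which genes were changed at d20 only, unlike the real data. The outcome is not reported and lends no support here. The genes named are the 9 factors, the 2 genes most like each, and up to 4 genes of each related list with the largest change at d20. Others were added after their values were seen: *CDH1*, *ELF5*, *SKIL*, *SNX5*, *SNAI1*, *FLG*, *CD79A*, *VWF*, *ADIPOQ*, *PLIN1* and the genes named as at most 1 read. The factors and lists were chosen with earlier results of these data known. A gene at 3 reads or fewer was treated as at the floor, which covers counting error only. Python 3.11.15 with matplotlib 3.10.9 drew the figures. One gene of the TGFβ response list is not reported here.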

Additional observations from a re-analysis of the deposited data

Results flagged for a closer look

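*EHF* was higher than in untreated cells at d4 and lower at d15. These days hold its highest and lowest means of the 7 timepoints and were chosen after those were seen, so the test of the difference between them restates that observation and is no independent support. The log2 difference between d4 and d15 was 2.86 (SE 0.15, adjusted p = 1.04e-12, limma), with 848, 882 and 878 normalized counts at d4 and 116, 137 and 106 at d15. All 3 d4 libraries lay above, and all 3 d15 libraries below, the untreated range of 469 to 495. At d4 and d15 the summed basal keratins were 254698 to 263441 and 471403 to 488186, the luminal markers 12154.2 to 12318.1 and 15998.2 to 16318.5, the immune markers 790 to 822 and 727 to 781, the endothelial markers 11.8 to 27.4 and 15.5 to 17.2, the melanocyte markers 47.3 to 56.5 and 73.4 to 90.4, and the adipocyte markers 9.7 to 17.6 and 30.8 to 40.4. Their part in the result was not tested.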

How the results depend on the processing

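No paired analysis was possible because no column carries a replicate number, so the fit with a replicate block was not run. The counts of factors higher and lower than d0 on each day were recomputed with a pseudocount of 10, without the filter on low values, after rescaling all libraries to a common total, with quantile normalization, with only the 2 groups compared in the fit, with edgeR and with DESeq2, and all of these counts stayed within 1.5 times. With a change of at least 2-fold required, the number of factors lower was 3 at d1, d4 and d7, and the number higher was 0 at d1, d4 and d10. With each library left out in turn, the number higher at d7 was 1 to 3, reaching 3 without the third d7 library and 2 without the third d0 library. No difference of the 9 factors changed sign among those called. *KRT14* at d20 turned from 0.33 to -0.87 (adjusted p = 1.87e-09) with quantile normalization, and the cause was not tested. Rescaling each library to the same total moved the median log2 difference of all genes to between -0.200 at d20 and -0.144 at d15. Precision is limited by read number for *GRHL3* at d10, with 4 to 7 reads per library. The same holds for *TJP3*, *SPRR1A* and *ZNF750*, which were at the floor of 3 reads or fewer in 7, 2 and 1 libraries.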
